A study of Mus musculus with 28 samples.

Results

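NK and cytotoxic effector genes are the genes of the lytic granule, the death ligand and the activating receptors that natural killer (NK) cells and cytotoxic T lymphocytes use to kill. The set was taken as every probe of the array whose only platform symbol was Gzma, Gzmb, Gzmk, Prf1, Nkg7, Klrd1, Klrk1, Klrb1c, Ncr1 or Fasl. Of these 10 genes, 4 had such a probe: Gzma, Fasl, Klrb1c and Ncr1, with 1 probe each among 16722 probes, and all 4 were among the 16600 probes tested. No probe matched Gzmb, Gzmk, Prf1, Nkg7, Klrd1 or Klrk1, which were not analysed here. One further probe is annotated to both Klrb1c and Klrb1a and was left out of the set.

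Peripheral blood mononuclear cells (PB MNCs) were compared between female C57Bl6 mice, 10 weeks old, that had been exposed to total body irradiation. The groups were nonirradiated controls (0 cGy) and mice given 50, 200 or 1000 cGy, all bled 6 h after exposure, with 7 mice and 7 arrays per group. The mice carried no engineered allele and received no other agent. Each value is the log2 ratio of the RNA of 1 mouse to a universal mouse reference RNA, a mixed RNA preparation hybridized to every array, after the median of all probes of that array was subtracted. PB MNCs are a mixture that was not sorted for NK cells, so a lower share of NK or T cells and less RNA per cell cannot be told apart.

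NK cells and cytotoxic T cells kill by 2 routes. In the granule route, perforin opens the target membrane and granzymes, a family of serine proteases, enter and cleave their substrates. In the second, Fas ligand on the killer cell binds Fas on the target and starts the caspase cascade. Gzma encodes granzyme A, Fasl encodes Fas ligand, Klrb1c encodes NK1.1, the activating receptor used to identify NK cells in C57BL/6 mice, and Ncr1 encodes NKp46, an activating receptor found mainly on NK cells and innate lymphoid cells. T-box, ETS and RUNX family transcription factors are known regulators of NK and cytotoxic T cell genes.

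The promoters of the 4 measured genes are shown as a description of their sequence. Gzma, Klrb1c and Ncr1 varied together across the mice, but they also varied with the spread of their arrays, as described below. Whether any of the motifs takes part in this was not tested. Each line gives the 250 bases before the gene start, 5′ to 3′ on the gene's own strand, from RefSeq on GRCm38.p6. All 4 genes were matched by symbol, and for Ncr1, which has 2 starts in the table, the first was used. Capitals mark matches, on either strand, to AGGAA (the ETS core), AGGTGT (T-box) or TGTGGT (RUNX). The windows are chr13:113100982-113101231 on the minus strand for Gzma, chr6:128788642-128788891 on the minus strand for Klrb1c, chr7:4337465-4337714 on the plus strand for Ncr1 and chr1:161788496-161788745 on the minus strand for Fasl.
Gzma: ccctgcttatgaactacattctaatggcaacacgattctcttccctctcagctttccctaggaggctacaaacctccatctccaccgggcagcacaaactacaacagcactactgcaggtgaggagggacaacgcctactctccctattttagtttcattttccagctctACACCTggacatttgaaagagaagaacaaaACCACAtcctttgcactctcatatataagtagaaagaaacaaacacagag
Klrb1c: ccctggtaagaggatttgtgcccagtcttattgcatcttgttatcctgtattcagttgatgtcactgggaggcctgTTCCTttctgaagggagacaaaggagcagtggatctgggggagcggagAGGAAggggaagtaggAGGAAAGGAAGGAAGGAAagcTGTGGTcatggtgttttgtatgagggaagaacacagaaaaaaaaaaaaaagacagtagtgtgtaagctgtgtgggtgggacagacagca
Ncr1: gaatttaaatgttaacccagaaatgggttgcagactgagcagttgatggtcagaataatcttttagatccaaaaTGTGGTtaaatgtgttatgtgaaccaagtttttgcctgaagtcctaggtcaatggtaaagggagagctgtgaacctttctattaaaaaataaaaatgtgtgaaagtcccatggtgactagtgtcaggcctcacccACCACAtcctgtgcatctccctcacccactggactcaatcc
Fasl: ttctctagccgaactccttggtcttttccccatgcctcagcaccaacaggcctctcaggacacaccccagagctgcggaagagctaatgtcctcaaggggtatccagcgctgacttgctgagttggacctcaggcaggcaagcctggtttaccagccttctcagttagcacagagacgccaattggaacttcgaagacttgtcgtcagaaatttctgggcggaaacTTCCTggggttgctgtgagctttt
The RUNX letters were present in the windows of Gzma, Klrb1c and Ncr1 (3 of 4) and in 14.0% of all 32851 promoter windows of the same length. The T-box letters were present in the Gzma window and in 11.8% of all windows. The ETS letters were present in the Klrb1c and Fasl windows and in 60.3% of all windows. The Klrb1c window held 6 ETS matches, of which those at positions -110, -105, -101 and -97 from the start run together and in part overlap each other; no 2 different motifs overlapped. A match describes the letters of the window and is not evidence of binding.

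Gzma had among the highest ratios to the reference RNA of any probe. In control mice its mean deposited log2 ratio was 6.65, a ratio of 101, which was rank 3 of 16722 probes. Fasl ranked 740, with a deposited mean of 2.20, Klrb1c ranked 1976, with 1.14, and Ncr1 ranked 2801, with 0.83. These ranks order the probes by enrichment over the reference RNA and do not compare RNA levels between genes.

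On the median-centred log2 scale, Gzma measured 6.71 at the lowest, 8.27 at the median and 9.0 at the highest in mice given 1000 cGy, against 6.30, 6.89 and 7.46 in controls. Of the 7 mice given 1000 cGy, 5 lay above every control and the other 2 lay within the control range. At 200 cGy the lowest, median and highest Gzma values were 6.30, 6.89 and 7.32, which spanned nearly the same range as the controls. At 50 cGy they were 5.62, 6.71 and 6.96, and 3 of the 7 mice lay below every control. Control mice averaged 6.85 ± 0.43, the 50 cGy group 6.42 ± 0.52, the 200 cGy group 6.89 ± 0.45 and the 1000 cGy group 7.95 ± 0.82 (SD, n = 7 each).

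Klrb1c had the tightest values of the 4 genes. Its lowest, median and highest centred log2 ratios were 1.61, 2.07 and 2.31 at 1000 cGy, against 1.12, 1.29 and 1.60 in controls. On this scale the 1000 cGy mice and the controls did not overlap, although the gap between the nearest mice was small. In the deposited values they overlapped. At 200 cGy the values were 1.23, 1.56 and 1.76, and 3 of 7 mice lay above every control. At 50 cGy they were 1.00, 1.19 and 1.27, and all 7 mice lay below the control median. The mean was 1.33 ± 0.16 for controls, 1.16 ± 0.09 for the 50 cGy group, 1.5 ± 0.21 for the 200 cGy group and 2.04 ± 0.24 for the 1000 cGy group (SD, n = 7 each).

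Ncr1 lay lowest of the 4 and its groups overlapped at every dose. At 1000 cGy its lowest, median and highest centred log2 ratios were 0.88, 1.29 and 1.65, against 0.53, 1.02 and 1.56 in controls, and 6 of 7 irradiated mice lay above the control median. At 200 cGy the values were 0.66, 0.88 and 1.33, with 1 of 7 mice above the control median. At 50 cGy they were 0.22, 0.78 and 0.92, with none of 7 above it. The mean was 1.02 ± 0.34 for controls, 0.69 ± 0.25 for the 50 cGy group, 0.91 ± 0.20 for the 200 cGy group and 1.27 ± 0.26 for the 1000 cGy group (SD, n = 7 each).

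Fasl had overlapping ranges in all groups, narrowest at 200 cGy. At 1000 cGy its lowest, median and highest centred log2 ratios were 1.83, 2.63 and 3.00, against 1.73, 2.36 and 2.94 in controls. The 200 cGy mice gave 2.26, 2.70 and 3.01, and the 50 cGy mice gave 1.57, 2.50 and 2.85. Every irradiated group overlapped the controls over most of its range. Controls averaged 2.39 ± 0.43, the 50 cGy group 2.42 ± 0.41, the 200 cGy group 2.62 ± 0.26 and the 1000 cGy group 2.46 ± 0.48 (SD, n = 7 each).

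**Figure D1:**
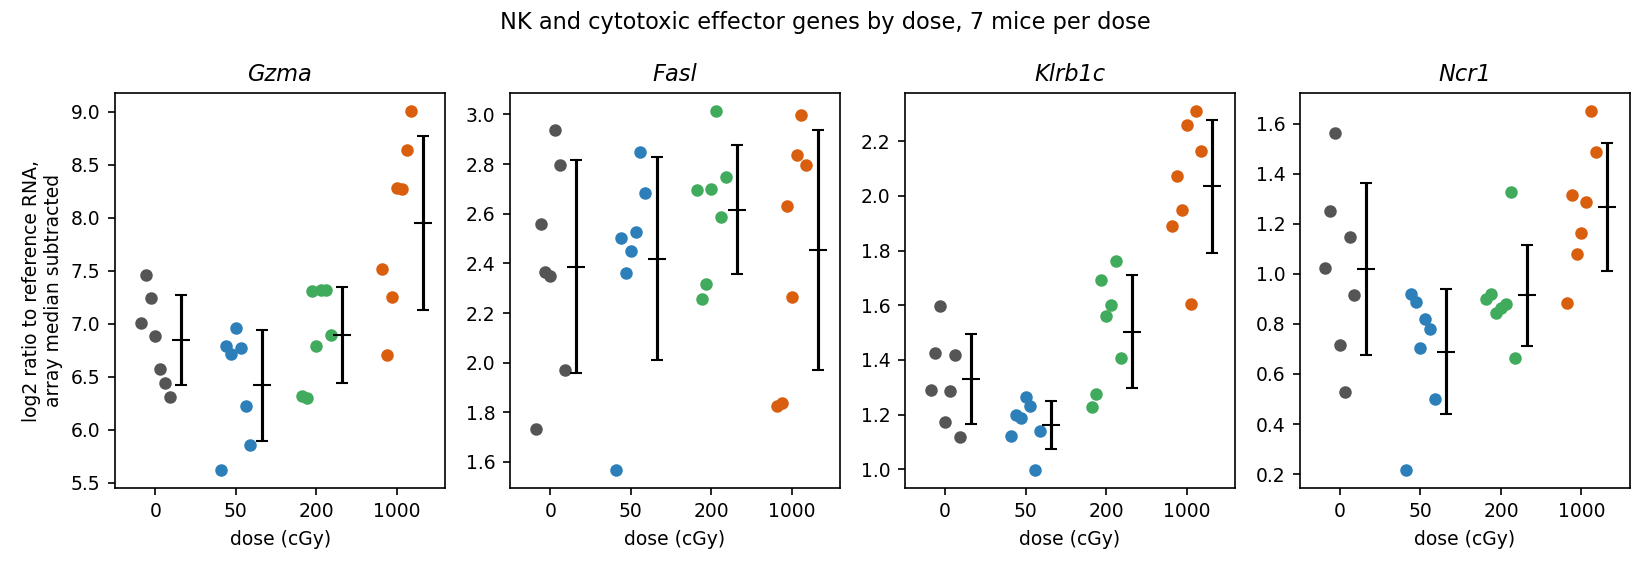
Median-centred log2 ratio to the reference RNA (y axis, a separate scale for each gene) of Gzma, Fasl, Klrb1c and Ncr1 by dose (x axis, cGy). Each point is 1 mouse and the bar is the mean ± SD of 7 mice; at 1000 cGy all 7 mice lie above every control for Klrb1c, 5 of 7 do for Gzma and 1 of 7 for Ncr1 and for Fasl, while other scalings of the arrays lower or turn round these differences.

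The first comparison asked which effector genes differed from nonirradiated mice at each dose. limma was fitted across all 16600 probes, and a probe was called where its p, adjusted by Benjamini-Hochberg, was under 0.05. The 3 doses share 1 set of control mice. At 50 cGy, 0 of 4 effector probes were called, while 13.4% of all probes were; at an unadjusted p under 0.05 the count was 1, Ncr1. At 200 cGy, 0 of 4 were called, also at an unadjusted p under 0.05, while 43.1% of all probes were. At 1000 cGy, 2 of 4 were called, both higher, while 67.2% of all probes were called and 38.3% were called higher. With 4 genes, these counts do not set the effector probes apart from all probes.

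At 1000 cGy the centred log2 ratio of Gzma was 1.11 above control (SE 0.291, adjusted p = 0.00161 in limma), a 2.15-fold higher ratio, but the sign turned under 2 other scalings given below. That of Klrb1c was 0.71 above control (SE 0.102, adjusted p = 9.92e-07), a 1.63-fold higher ratio. The probe shared by Klrb1c and Klrb1a, left out of the set, was 0.77 above control (SE 0.107, adjusted p = 5.46e-07 in limma). It was also called higher at 200 cGy (0.35, adjusted p = 0.00836 in limma), where the Klrb1c probe was not called. As deviations from group means, the shared probe and the Klrb1c probe correlated at r = -0.23. With centring, Klrb1c was the only effector gene whose 1000 cGy mice and controls did not overlap, which held for 28.6% of all probes and, in the higher direction, for 13.7%. With no centring its groups did overlap: the lowest 1000 cGy mouse was at 1.27 and the highest control at 1.30. Ncr1 differed by 0.25 (SE 0.141, adjusted p = 0.123) and Fasl by 0.07 (SE 0.206, adjusted p = 0.776), with 95% intervals of -0.03 to 0.52 and -0.33 to 0.47. Neither passed the test.

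At 50 cGy the differences from control were -0.43 for Gzma (SE 0.291, adjusted p = 0.342 in limma), -0.17 for Klrb1c (SE 0.102, adjusted p = 0.287), -0.33 for Ncr1 (SE 0.141, adjusted p = 0.114) and 0.03 for Fasl (SE 0.206, adjusted p = 0.934). The 3 negative differences missed the threshold, and the 95% interval of Gzma, -1.0 to 0.14, spans differences from clearly lower to slightly higher than control. At 200 cGy the differences were 0.05 for Gzma, 0.17 for Klrb1c, -0.11 for Ncr1 and 0.23 for Fasl, with adjusted p = 0.911, 0.18, 0.582 and 0.396 in limma. Without control replicate 5, Ncr1 was called at 50 cGy (-0.41, adjusted p = 0.0464), and without control replicate 3 it was called at 1000 cGy (0.34, adjusted p = 0.0301).

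The dose groups were then set against each other, which uses no control mouse in the difference. Between 1000 and 200 cGy, 2 of 4 effector probes were called and 34.1% of all probes were: Gzma was 1.06 higher at 1000 cGy (SE 0.291, adjusted p = 0.00757 in limma), a difference that was -0.07 after quantile normalization, and Klrb1c was 0.53 higher (SE 0.102, adjusted p = 0.000455), or 0.16 after quantile normalization (adjusted p = 0.16). With array weights the Gzma difference was 0.69 and missed the threshold (adjusted p = 0.0623). The Gzma difference was larger in size than that of 98.4% of all probes, the highest such rank of any of the 4 genes in the 6 comparisons. Ncr1 was 0.35 above its 200 cGy mean at 1000 cGy (adjusted p = 0.0527), on the edge of the threshold. Leaving out any 1 of 6 mice brought it past, 200 cGy replicate 6 among them (0.42, adjusted p = 0.0199). Control replicates 3 and 5 and 50 cGy replicate 1, in neither group compared, were also among the 6. Without any of these the difference stayed at 0.35. Under the other 3 scalings the Ncr1 difference was 0.20, 0.12 and 0.21 with an adjusted p of 0.211 or more. Fasl differed by -0.16 (adjusted p = 0.558). Between 200 and 50 cGy, 1 of 4 was called and 39.2% of all probes were; Klrb1c was 0.34 higher at 200 cGy (SE 0.102, adjusted p = 0.0099 in limma), with 6 of 7 mice above every 50 cGy mouse. That call was not made under any of the other 3 scalings.

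Between the ends of the irradiated range, 1000 and 50 cGy, 3 of 4 effector probes were called, against 70.4% of all probes. Gzma was 1.53 higher at 1000 cGy (SE 0.291, adjusted p = 4.6e-05 in limma), Klrb1c 0.87 higher (SE 0.102, adjusted p = 3.57e-08) and Ncr1 0.58 higher (SE 0.141, adjusted p = 0.000736); the Gzma sign turned under 2 other scalings, to -0.49 and -0.41, and Ncr1 missed the threshold after quantile normalization (0.18, adjusted p = 0.258). Fasl differed by 0.04 with centring (adjusted p = 0.884), but was called lower at 1000 cGy after quantile normalization (-0.79, adjusted p = 0.00759) and with every array scaled to equal spread (-0.62, adjusted p = 0.0218). In order of group mean, Gzma, Klrb1c and Ncr1 were lowest at 50 cGy and highest at 1000 cGy. For Gzma, neighbours in that order below 1000 cGy (50 cGy and control, control and 200 cGy) did not differ beyond the test's threshold. For Klrb1c the same was true, while 200 and 50 cGy, which are not neighbours, did differ. For Ncr1 no pair of neighbours (50 and 200 cGy, 200 cGy and control, control and 1000 cGy) passed. With centring, no pair of groups passed for Fasl.

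The arrays of irradiated mice were not spread alike, and the values of Gzma, Klrb1c and Ncr1 moved with that spread, while those of Fasl did not. The SD of all log2 ratios on an array averaged 1.48 on control arrays, and 1.42, 1.54 and 1.69 on the arrays of the 50, 200 and 1000 cGy groups, and the 1000 cGy arrays (1.61 to 1.77) lay above the controls (1.39 to 1.58) with no overlap. Over the 28 arrays the centred ratio of a gene correlated with its array's SD at r = 0.93 for Klrb1c, 0.84 for Gzma, 0.74 for Ncr1 and -0.01 for Fasl. Within groups, as deviations from group means, r was 0.72, 0.64, 0.63 and -0.13 for the same genes. Each point is 1 array, so both measures come from the same hybridization, and a probe far from the array median takes part in that SD.

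Each comparison was read under 4 scalings of the arrays. These were median centring, the deposited values with no centring, quantile normalization, and equal array spread. The last is centring plus scaling of each array to the same median absolute deviation. That deviation is another measure of spread than the SD above. Whether the difference in SD accounts for any change of sign below was not tested. For all probes together, the median difference between 1000 cGy and control was 0.13 with centring, -0.12 with no centring and -0.02 after quantile normalization. For Gzma at 1000 cGy the difference from control was 1.11 with median centring and 0.86 with no centring (adjusted p = 0.00899), but -0.58 after quantile normalization (SE 0.179, adjusted p = 0.00659) and -0.50 with equal array spread (SE 0.26, adjusted p = 0.0991). The quantile-normalized fit thus called Gzma lower at the dose at which the centred fit called it higher.

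Klrb1c kept a positive difference at 1000 cGy under all 4 scalings, at 0.71, 0.46, 0.10 and 0.32 in the order above, and missed the threshold after quantile normalization (adjusted p = 0.318). Ncr1 was at 0.25 with centring, and between -0.13 and 0.00 under the other 3. Fasl was at 0.07 with centring, -0.18 with no centring, -0.71 after quantile normalization (adjusted p = 0.0158) and -0.46 with equal array spread (adjusted p = 0.0872). At 200 cGy, Gzma was 0.05 above control with centring and -0.05 with no centring, and it was called lower after quantile normalization (-0.51, adjusted p = 0.0216) and with equal array spread (-0.70, adjusted p = 0.0278). At 50 cGy, Gzma, Klrb1c and Ncr1 were negative and Fasl positive under all 4 scalings, with 0 calls in any of them.

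No effector gene was called in the same direction under all 4 scalings at any dose against control. Among all 9076 genes tested, that held for 9.31% in the 50 cGy comparison, 33.7% in that of 200 cGy and 42.2% in that of 1000 cGy. Between 1000 and 50 cGy, 1 of 4 passed under all 4 scalings: Klrb1c was 0.87 higher with centring, 0.58 with no centring, 0.21 after quantile normalization and 0.43 with equal array spread, with a highest adjusted p of 0.0315 in limma. The share of all probes called under all 4 scalings was not taken for this comparison. With centring alone, 70.4% of all probes were called, so the count of 1 of 4 does not set Klrb1c apart.

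**Figure D2:**
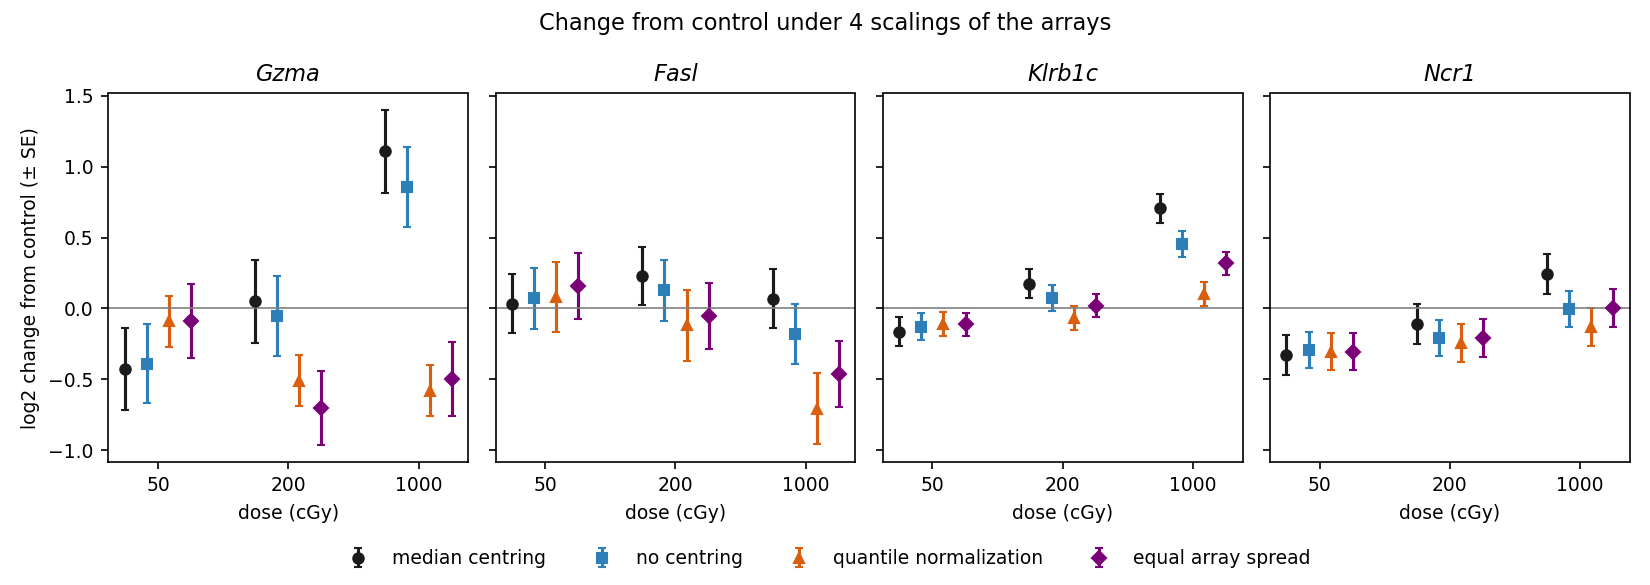
Log2 difference from control (y axis, ± SE from limma) of Gzma, Fasl, Klrb1c and Ncr1 at 50, 200 and 1000 cGy (x axis) under 4 scalings of the arrays, marked by symbol. At 1000 cGy Gzma is 1.11 with median centring and -0.58 after quantile normalization, whereas Klrb1c stays positive, between 0.10 and 0.71.

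The rank of a probe within its own array needs no scaling. Quantile normalization sets each value by this rank, so the ranks are not a separate check on it. Gzma had a median rank of 11 from the top (range 5 to 18) at 1000 cGy, against 5 (range 1 to 10) in controls, so its place was lower at the dose at which its centred ratio was higher. Its median ranks at 50 and 200 cGy were 5 and 8. At this end of the scale a few probes passing Gzma are enough to move its rank. The mean centred ratio at 1000 cGy and in controls was 9.13 and 5.75 for S100a8 and 9.02 and 6.12 for S100a9. For Gzma it was 7.95 and 6.85, so these neutrophil markers lay below it in controls and above it at 1000 cGy. Fasl had a median rank of 1142 at 1000 cGy, against 741 in controls, with overlapping ranges. Klrb1c had a median rank of 1849.5 at 1000 cGy, against 1955.5 in controls, and all 7 of its 1000 cGy ranks lay inside the control range of 1597.5 to 2597. Ncr1 had a median rank of 3300 at 1000 cGy, against 3114 in controls.

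The probes that share the upper end of the scale with Gzma were higher as well. The mean centred ratio of the 100 probes with the highest control values, Gzma left out, was 5.75 ± 0.27 at 1000 cGy and 5.25 ± 0.36 in controls (SD, n = 7 each), a difference of 0.50. Gzma exceeded that mean by 2.20 ± 0.65 at 1000 cGy and by 1.59 ± 0.27 in controls. The 1000 cGy mice reached from 1.26 to 3.06 on this difference, against 1.20 to 2.04 in controls, so the ranges overlapped.

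**Figure D3:**
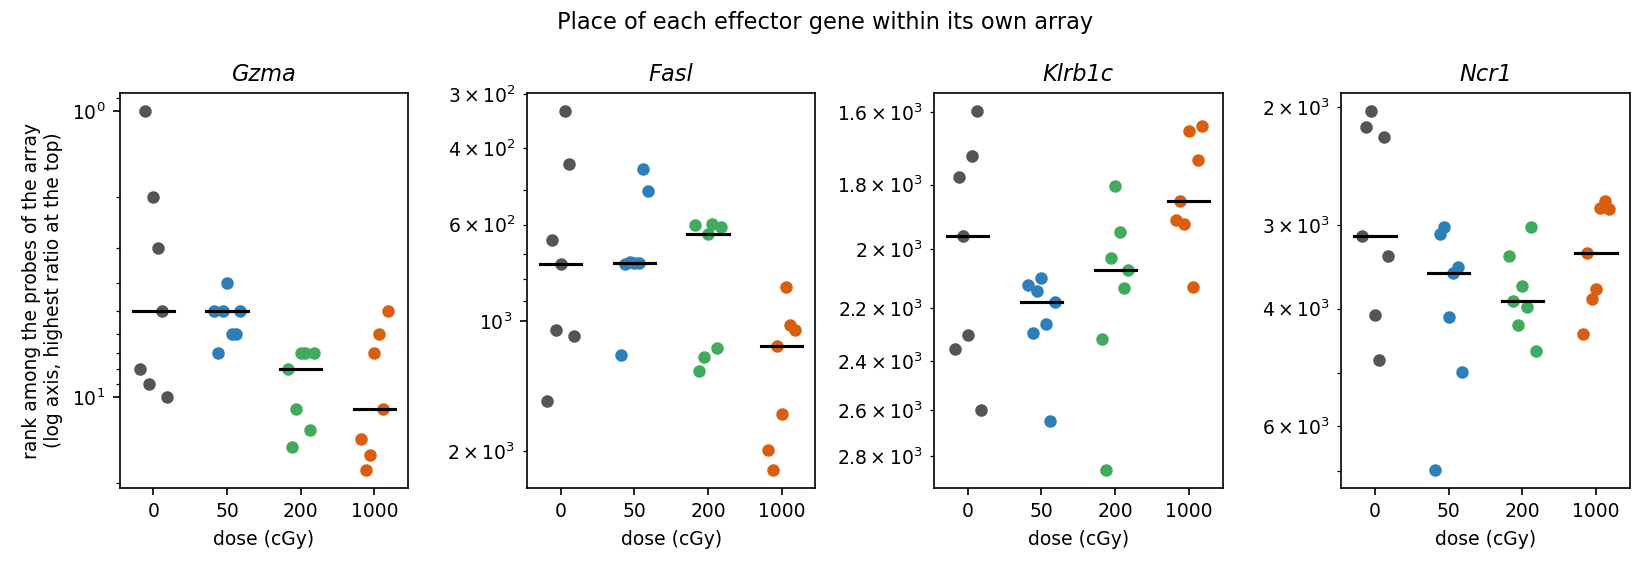
Rank of Gzma, Fasl, Klrb1c and Ncr1 among the probes of each array by dose (x axis, cGy), with the highest ratio to reference at the top of a log y axis that differs between panels. Points are mice and lines are group medians; the Gzma median is rank 11 at 1000 cGy and rank 5 in controls, and the Klrb1c ranks at 1000 cGy lie inside the control range.

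The 4 genes differed in how much mice of 1 group varied. The within-group SD of the centred ratio was 0.577 for Gzma, more than for 94.1% of probes, 0.404 for Fasl (83.3%), 0.268 for Ncr1 (56.4%) and 0.185 for Klrb1c (22.4%), against a median of 0.249 over all probes. Over the 28 arrays, Gzma correlated with Klrb1c at r = 0.80 and with Ncr1 at r = 0.73, and Klrb1c with Ncr1 at r = 0.69. As deviations from group means these were 0.50, 0.54 and 0.50. Fasl correlated with Gzma at r = 0.29 (0.41 within groups), with Ncr1 at 0.20 and with Klrb1c at 0.09. Each pair of values comes from 1 array and so shares its spread, and no p is given.

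The genes whose centred ratios ran most like those of each effector gene over the 28 arrays were taken by Pearson r. For Gzma they were Cd52, a lymphocyte surface glycoprotein, Rasgrp2, a Rap1 exchange factor, and Ccr7, the lymph node homing receptor, with r = 0.93, 0.93 and 0.93 (0.88, 0.88 and 0.89 within groups). For Klrb1c they were Pcgf1, a Polycomb group protein, Myo15, an unconventional myosin, and Hoxb4, a homeobox factor, with r = 0.94, 0.94 and 0.94 (0.74, 0.75 and 0.82 within groups). Klrb1c correlated with the SD of its array at r = 0.93, and the part of that spread in these likenesses was not tested. For Ncr1 they were Tnfrsf19, Fxyd7 and Elavl2, with r = 0.88, 0.88 and 0.87 (0.80, 0.80 and 0.77 within groups). For Fasl they were Etfb, Ahsa1 and Tpst2, with lower r of 0.68, 0.66 and 0.65 (0.76, 0.73 and 0.66 within groups). None of these 12 genes belongs to the effector genes or to the lists below except Cd52 and Ccr7, which are in the leukocyte and T cell marker lists.

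The genes around the effectors were read from 5 lists by role, with probes of 1 gene averaged and p-values adjusted over all 9076 genes. Of all genes, the 50 cGy comparison called 11.9% (8.03% higher, 3.89% lower), the 200 cGy comparison 43.5% (23.2% higher, 20.3% lower) and the 1000 cGy comparison 66.7% (40.8% higher, 25.9% lower). Over the 5 lists, 44 of 80 measured genes were called higher and 17 lower at 1000 cGy with centring, a split that was 35 to 22 with no centring, 27 to 27 after quantile normalization and 34 to 22 with equal array spread. At 200 cGy the split was 38 to 8 with centring, 34 to 10 with no centring, 28 to 15 after quantile normalization and 30 to 15 with equal array spread. For all 16600 probes the 1000 cGy split, in the same order, was 6360 to 4796, 3974 to 6610, 4402 to 5362 and 5813 to 4421. The all-probe split at 200 cGy was 3688 to 3468, 2797 to 4345, 3349 to 3968 and 4016 to 3551. Several of the listed genes are also made by monocytes, neutrophils or platelets. The monocyte markers (11 of 19 measured) were higher in 11 of 11 at 1000 cGy, with a mean centred level of 2.37 to 3.31 per array, against 1.09 to 1.79 in controls. The neutrophil markers (6 of 17 measured) were higher in 6 of 6, at 5.09 to 5.88 against 2.03 to 3.8. The platelet markers (7 of 14 measured) were higher in 7 of 7 at 1000 cGy, at 5.82 to 7.18 against 1.99 to 4.61 in controls, and in 7 of 7 at 200 cGy. At 50 cGy 3 of 7 platelet markers were higher, with a mean level of 4.22 to 5.18, while the monocyte markers lay at 1.21 to 1.67 and the neutrophil markers at 2.20 to 2.66, both inside their control ranges. Of the monocyte, neutrophil and platelet markers, 8 of 11, 6 of 6 and 5 of 7 were called higher under all 4 scalings at 1000 cGy, which held for 21.5% of all genes in the higher and 20.7% in the lower direction, and no marker of any cell type list was at the lowest ratio of the table. The part of these cells in the changes below was not tested.

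Of the NK receptors and adaptors, 21 of 48 were measured; 4 rose and 1 fell in the 50 cGy group, 12 rose and 2 fell in the 200 cGy group, and 13 rose and 5 fell in the 1000 cGy group, where the median difference was 0.42 against 0.17 for all genes. These calls were made with centring. Under all 4 scalings, 5 were called higher and 5 lower at 1000 cGy, against 21.5% and 20.7% of all genes. At 1000 cGy the members called with the smallest adjusted p were Fcer1g, Fcgr4 and Fcgr3. Fcer1g, the Fc receptor gamma chain that carries signals for NK and myeloid receptors, averaged 4.58 at 1000 cGy and 1.60 in controls, a rise of 2.98 (SE 0.129, adjusted p = 5.64e-17 in limma), and had already risen by 0.67 at 50 cGy (adjusted p = 0.00119). Fcgr3 and Fcgr4, receptors for IgG, rose by 2.67 and 2.31. Tyrobp, which encodes DAP12, the adaptor of several activating receptors in NK and myeloid cells, rose by 0.82 at 50 cGy, 2.08 at 200 cGy and 2.89 at 1000 cGy. All 4 were called higher under all 4 scalings at 1000 cGy.

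Among other genes of this list, Klrc1, the NKG2A chain that pairs with the CD94 protein, was 0.39 higher at 1000 cGy (SE 0.112, adjusted p = 0.00345 in limma), with -0.21 after quantile normalization. Klra7, an inhibitory receptor of the Ly49 family, and Slamf7, a SLAM family receptor, were 0.64 and 0.64 higher at 1000 cGy with centring and missed the threshold after quantile normalization (0.29 and 0.0020, adjusted p = 0.165 and 0.994). Klrb1f and Cd244a, receptors of the NKR-P1 and SLAM families, were 0.42 and 0.31 higher with centring, and missed it with no centring (0.17 and 0.06, adjusted p = 0.291 and 0.704); Klrb1f was -0.04 after quantile normalization. Hcst, which encodes DAP10, the signalling partner of NKG2D, was 0.40 higher at 50 cGy (adjusted p = 0.0341) and 0.74 higher at 1000 cGy (adjusted p = 7.16e-06), and its value at 1000 cGy was -0.23 after quantile normalization and -0.18 with equal array spread. Zap70, the kinase downstream of T cell and NK receptors, was 0.40 higher at 50 cGy (SE 0.103, adjusted p = 0.0127) and lower at 1000 cGy (-0.40, adjusted p = 0.00137). Besides Zap70, Cd96, Ly9, Syk and Itga2 were called lower under all 4 scalings at 1000 cGy.

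Of the granule machinery, 20 of 29 genes were measured; the calls were 3 up and 1 down for 50 cGy, 13 up and 0 down for 200 cGy, and 16 up and 1 down for 1000 cGy, where the median difference was 0.84 against 0.17 for all genes. Under all 4 scalings, 10 of these genes were called up and 1 down at 1000 cGy. Lamp2, a lysosome membrane protein, averaged 1.32 at 1000 cGy and -0.93 in controls, a rise of 2.25 (SE 0.134, adjusted p = 5.65e-14 in limma), and Serpinb6a, a cytosolic protease inhibitor, rose by 0.92 at 50 cGy, 1.64 at 200 cGy and 2.01 at 1000 cGy. Vamp8, a SNARE protein of granule fusion, rose by 0.89 at 1000 cGy. Ap3b1, a subunit of the adaptor complex that sorts proteins to granules, was lower at 50 cGy (-0.29, SE 0.0825, adjusted p = 0.023), and missed the threshold with no centring (adjusted p = 0.0923). These lysosome and fusion proteins are widely expressed.

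The direct partners of granzyme were fewer and mixed. Srgn, the proteoglycan serglycin that holds granzymes in the granule, averaged 6.87 at 1000 cGy and 5.20 in controls, a rise of 1.67 (SE 0.177, adjusted p = 4.27e-09 in limma), which came to 0.34 with equal array spread and missed the threshold there (adjusted p = 0.0533). Ctsc, the peptidase that activates granzymes, rose by 0.74 at 200 cGy and by 0.61 at 1000 cGy (SE 0.143, adjusted p = 0.000571), but was -0.17 after quantile normalization at the higher dose. Serpinb9, the granzyme B inhibitor, rose by 0.66 at 1000 cGy (adjusted p = 0.00181), a call that was not made under any of the other 3 scalings, where the value came down to 0.06 after quantile normalization (adjusted p = 0.835). Ctsw, cathepsin W of NK and cytotoxic T cells, went the other way: it averaged 3.05 at 1000 cGy and 3.77 in controls (-0.71, SE 0.297, adjusted p = 0.0361), and it was called lower under all 4 scalings. Gzmn, the only other granzyme gene with a value, differed by 0.11 (adjusted p = 0.201).

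Of the ligands and the death receptor pathway, 11 of 31 genes were measured; the calls were 1 up and 0 down for 50 cGy, 3 up and 1 down for 200 cGy, and 4 up and 2 down for 1000 cGy, where the median difference was 0.23. Fas, the receptor of Fas ligand and a p53 target, averaged 2.77 at 1000 cGy, 2.46 at 200 cGy and 1.07 in controls, rises of 1.71 (SE 0.14, adjusted p = 3.28e-11 in limma) and 1.39 that kept their direction and call under all 4 scalings. At 50 cGy it differed by -0.13 (adjusted p = 0.563). Fasl itself, in the same mice, differed by 0.07 at 1000 cGy with centring and by -0.71 after quantile normalization. Casp8, the initiator caspase below Fas, was lower at 1000 cGy (-0.33, adjusted p = 0.0117), and Fadd, the adaptor between them, differed by 0.32 (adjusted p = 0.198). Bid, which links caspase-8 to mitochondria, rose by 1.18 at 1000 cGy. H2-T23, which encodes Qa-1, the ligand of the NKG2A receptor, rose by 0.45 at 50 cGy, 0.76 at 200 cGy and 1.08 at 1000 cGy with centring, but the value at 1000 cGy was 0.25 after quantile normalization and missed the threshold (adjusted p = 0.186). Pvr, a ligand of the CD226 and CD96 receptors, was lower at 1000 cGy (-1.0, SE 0.0947, adjusted p = 5.4e-10).

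Of the transcription factors and cytokine receptors, 22 of 42 were measured; the calls were 1 up and 0 down for 50 cGy, 6 up and 4 down for 200 cGy, and 8 up and 8 down for 1000 cGy, with a median difference of 0.20 at the highest dose against 0.17 for all genes. Il15, the cytokine on which NK cells depend and which myeloid cells present, averaged 4.22 at 1000 cGy and 1.10 in controls, a rise of 3.12 (SE 0.262, adjusted p = 5.1e-11 in limma), and rose by 2.70 at 200 cGy. Id2, needed for NK development, rose by 0.40, 1.12 and 1.18 at 50, 200 and 1000 cGy, and Zeb2, a factor of late NK maturation that is also made in myeloid cells, rose by 1.40 and 1.82 at 200 and 1000 cGy. Foxo1 and Tgfbr2, both of which restrain NK maturation, were lower at 1000 cGy (-1.52 and -0.91). These are values of unsorted cells, in which the B cell markers had a median difference of -3.30 at that dose. The part of that shift in the lower values was not tested. Tbx21, which encodes T-bet, differed by -0.85 at 50 cGy (SE 0.287, adjusted p = 0.053) and by 0.30 at 1000 cGy (adjusted p = 0.367), or -0.54 after quantile normalization at that dose.

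Of the cytokines and chemokines, 6 of 13 were measured; the calls were 1 up and 0 down for 50 cGy, 4 up and 1 down for 200 cGy, and 3 up and 1 down for 1000 cGy, where the median difference was 0.59 against 0.17 for all genes. Tnf averaged 4.24 at 1000 cGy and 1.87 in controls, a rise of 2.37 (SE 0.191, adjusted p = 2.3e-11 in limma), and Il10 rose by 1.02. Ccl5, a chemokine stored and released by NK and cytotoxic T cells, rose by 0.69 at 200 cGy and 1.33 at 1000 cGy (SE 0.183, adjusted p = 4.49e-07), and stayed positive under all 4 scalings, at 0.37 or more at 1000 cGy, where its highest adjusted p was 0.0692; at 200 cGy it missed the threshold after quantile normalization and with equal array spread (adjusted p = 0.164 and 0.186). Ccl4, another chemokine of these cells, rose by 0.51 at 50 cGy (adjusted p = 0.0208) and 0.87 at 200 cGy but differed by 0.17 at 1000 cGy (adjusted p = 0.296), or -0.51 after quantile normalization, where it was called lower (adjusted p = 0.026).

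The T cell markers (11 of 24 measured) are of interest beside Gzma, which cytotoxic T cells can carry. At 1000 cGy, 4 were higher and 5 lower with centring, and 0 and 5 (Cd3g, Cd27, Lat, Bcl11b and Ptprcap) under all 4 scalings. Their mean centred level ran from 2.72 to 3.06 at 1000 cGy and from 2.88 to 3.19 in controls. The mean of these markers correlated over the 28 arrays with Gzma at r = -0.37 (0.38 within groups) and with Klrb1c at r = -0.62 (0.03 within groups). The B cell markers (10 of 17 measured) were lower in 10 of 10 at 1000 cGy under all 4 scalings, with a median difference of -3.30. The part of these shifts in the values of the effector genes and of the listed genes was not tested.

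**Figure D4:**
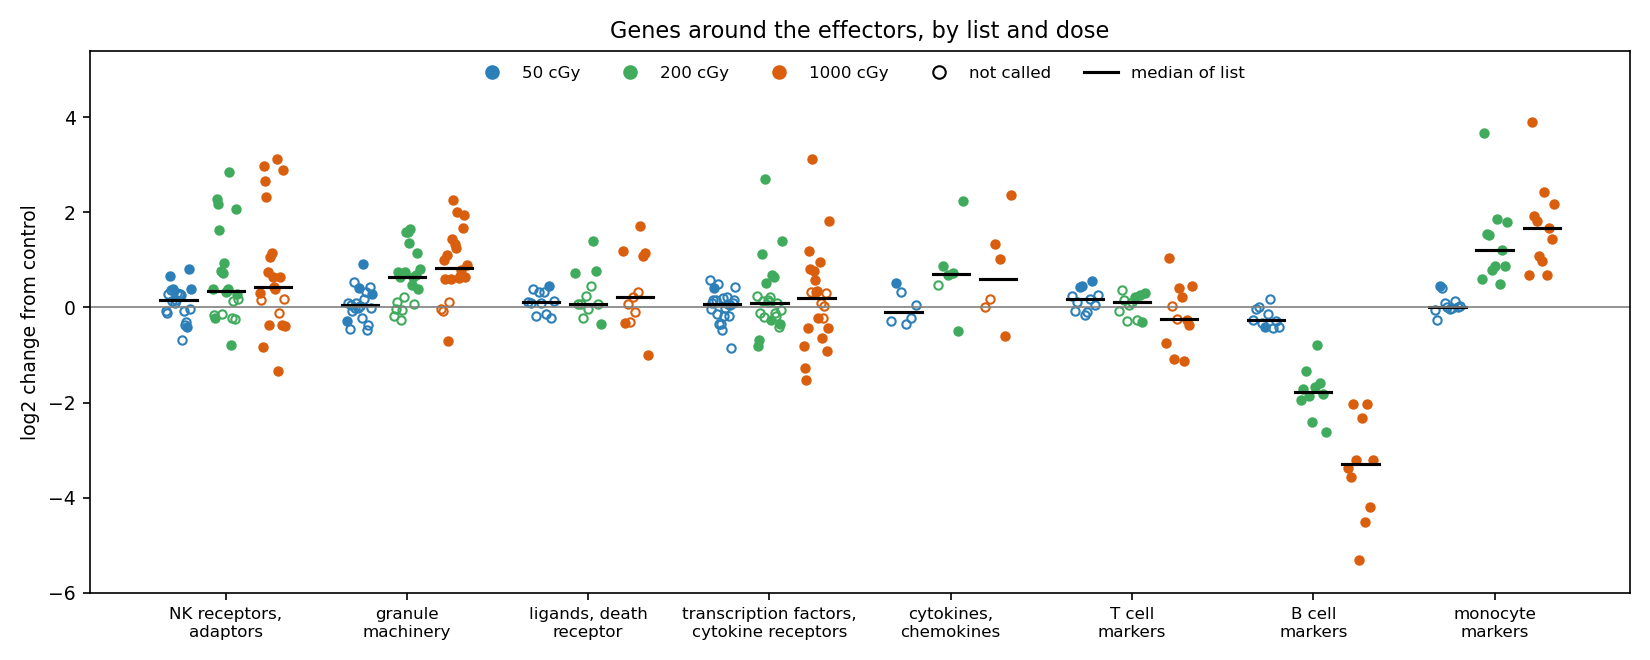
Log2 difference from control with median centring (y axis) of each measured gene in the 5 lists around the effectors and in the T cell, B cell and monocyte markers, by dose. Filled points were called by limma and black lines are list medians; at 1000 cGy the granule machinery median is 0.84 and the monocyte marker median is 1.68, and some of the smaller rises, such as Klrc1 and Hcst, turn negative after quantile normalization.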

How the data were processed

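PB MNCs of 28 mice were measured on 28 2-colour arrays, 1 per mouse. Per the methods, RNA was amplified and labelled with Cy5 (sample) and Cy3 (reference); the dye labels of 6 of the 28 samples, all at 1000 cGy, carry other numbers, so their direction rests on the methods, and these arrays correlated with the others at r = 0.755 to 0.981 over all probes. The ratio at each spot was the median of ratios, and a spot was dropped where a channel's signal was below 100. The methods also describe filling in missing values by a k-nearest-neighbour average. The deposited values still hold 2174 missing ones, and whether any of the others were imputed is not known here. The authors deposited log2 ratios of sample to reference; converted back, 97.4% of the ratios below 4 fall on whole thousandths (to within 6e-05 on the log2 scale). The method of normalization between arrays, not given in the sources used here, could change every value. No spot intensities were used: the table holds ratios alone, so depth is unknown and the number of arrays limits the precision.

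Arrays were centred on their medians, and limma 3.58.1 (R 4.3.3) fitted a mean per group to every probe that had 5 or more values in each group. None of the 4 effector probes had a missing value. Calls used a Benjamini-Hochberg adjusted p under 0.05. Intervals are normal 95% intervals. The models were tested on simulated data. No difference in array spread between doses was built into these data, so the test cannot bear on the choice of scaling. The effector genes and all lists were chosen with earlier results of these data known. Named were every effector probe, direct partners of an effector, and the 3 genes most like each effector. Also named were the 3 list genes with the smallest adjusted p per list and dose. Other list genes, such as Cd96, Ly9 and Klra7, are given for a call under all scalings or as further examples, chosen after their values were seen. Alternatives were quantile normalization, no centring, robust variance moderation, array weights, a replicate block, only the groups compared, other limits on missing values, gene means, values at the lowest ratio taken as missing, and each sample left out. Equal array spread was added after seeing the data. Replicate numbers do not pair the mice: the mean r of deviations was -0.0156 over 42 same-numbered pairs and 0.00189 for other pairs, and 3 of 28 arrays were closest to their own number.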

Additional observations from a re-analysis of the deposited data

Results flagged for a closer look

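In groups of 7 mice, the highest or lowest mouse was compared with its nearest neighbour by Dixon's ratio at the 95% level, for 4 genes at 4 doses. Chance flags about 1 in 20 such groups, and 2 of the 16 groups were flagged. Fasl in 50 cGy replicate 1 had a centred log2 ratio of 1.57, below the next mouse of its group at 2.36. Ncr1 in 200 cGy replicate 6 had a centred log2 ratio of 1.33, above the next mouse of its group at 0.92. Without this mouse, the difference of Ncr1 between 1000 and 200 cGy was 0.42 (adjusted p = 0.0199 in limma) against 0.35 with it (adjusted p = 0.0527).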

How the results depend on the processing

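Of the 24 differences (4 genes in 6 comparisons), 15 changed direction or call after quantile normalization, 10 with equal array spread, 5 with no centring, 4 with array weights, 1 with the replicate block and 0 under each of the 6 other alternatives fitted to all samples or to the groups compared. Those on missing values, the lowest ratio and gene means could hardly change a difference. Each gene has 1 probe, with no missing value and no value at the lowest ratio. In the fits with each sample left out, 24 of 672 values changed. The 672 include fits without a mouse of neither group compared. Such a fit leaves the difference as it is and can move only its SE and adjusted p. The direction of Gzma and Fasl depended on the scaling of the arrays, and that of Klrb1c and Ncr1 did so where their differences were small; the cause was not tested. With no centring, the difference from control became -0.053 for Gzma at 200 cGy and -0.0047 for Ncr1 and -0.18 for Fasl at 1000 cGy, and that of Fasl between 1000 and 50 cGy became -0.25. After quantile normalization it became -0.51 for Gzma, -0.065 for Klrb1c and -0.12 for Fasl at 200 cGy, and -0.58 for Gzma, -0.13 for Ncr1 and -0.71 for Fasl at 1000 cGy; between 200 and 50 cGy it became -0.42 for Gzma and -0.20 for Fasl, between 1000 and 200 cGy -0.072 for Gzma, and between 1000 and 50 cGy -0.49 for Gzma and -0.79 for Fasl. With equal array spread, added after seeing the data, it became -0.70 for Gzma and -0.052 for Fasl at 200 cGy, -0.50 for Gzma and -0.46 for Fasl at 1000 cGy, -0.62 for Gzma and -0.21 for Fasl between 200 and 50 cGy, and -0.41 for Gzma and -0.62 for Fasl between 1000 and 50 cGy. With array weights, Fasl became -0.049 at 1000 cGy against control and -0.16 between 1000 and 50 cGy.

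The counts of effector probes called followed. At 200 cGy the count was 1 after quantile normalization and 1 with equal array spread, against 0 with centring, and at 1000 cGy it was 1 with equal array spread against 2. Between 200 and 50 cGy it was 0 with no centring, 0 after quantile normalization and 0 with equal array spread, against 1. Between 1000 and 200 cGy it was 0 after quantile normalization and 1 with equal array spread, against 2. An equal count could hide other genes. Quantile normalization also called 2 at 1000 cGy, but these were Gzma and Fasl, both lower (-0.58 and -0.71). Between 1000 and 50 cGy it called Gzma and Fasl lower and Klrb1c higher, while centring called Gzma, Klrb1c and Ncr1 higher. The calls over all 16600 probes moved as well. At 200 cGy quantile normalization called 3349 probes higher and 3968 lower, and equal array spread 4016 and 3551. At 1000 cGy equal array spread called 5813 and 4421. Between 200 and 50 cGy, no centring called 1900 and 4798, quantile normalization 2446 and 3846, and equal array spread 3497 and 3341. Between 1000 and 200 cGy, quantile normalization called 1402 and 2404, and equal array spread 1980 and 1658. List genes called at 50 cGy numbered 19 with equal array spread, against 12. With each sample left out, the count at 50 cGy ranged between 0 and 1. Without control replicate 3, Ncr1 was also called at 1000 cGy. Between 1000 and 200 cGy, Ncr1 was also called in 6 such fits. The differences then ranged between -0.076 and 0.18 for Fasl at 50 cGy, between -0.041 and 0.15 for Gzma at 200 cGy, between -0.040 and 0.17 for Fasl at 1000 cGy and between -0.11 and 0.14 for Fasl between 1000 and 50 cGy. With the replicate number as a block, 3 effector probes were called between 1000 and 200 cGy, against 2 without it, since Ncr1 passed (adjusted p = 0.0386 in limma); the block changed no other call, and the numbers do not pair the mice. The table has no intensities, so signal over background could not be examined.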
